A study of Mus musculus with 15 samples.

Results

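The genes *Rbfox1*, *Rbfox2*, *Rbfox3*, *Nova1*, *Nova2*, *Ptbp1*, *Ptbp2*, *Mbnl1* and *Mbnl2* encode RNA-binding proteins that set which exons brain transcripts include. They were taken by gene symbol, and all 9 were found among the 23235 genes of an RNA-seq table of mouse cortex. All 9 were also among the 10297 genes, called the tested genes here, whose FPKM averaged 1 or more over the groups (FPKM is the fragment count scaled to transcript length and to the size of the library). The question the study posed was where *116HG*, the long non-coding host gene RNA of the Prader-Willi *Snord116* locus, sits on chromatin in brain, and how transcript levels differ without it.

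RNA-seq was carried out on cortex of adult male mice in 4 groups: C57BL/6J WT littermates at Zt +6 (3 mice), *Snord116del* at Zt +6 (2 mice), WT at Zt +16 (2 mice) and *Snord116del* at Zt +16 (2 mice). Zt counts hours from lights on, so mice were in the light at Zt +6 and in the dark at Zt +16. *Snord116del* mice are B6(Cg)-Snord116tm1.1Uta/J heterozygotes, written (+/-) in the labels, with the deletion on the paternal chromosome, in every cell of the body. The deleted repeat cluster encodes the *Snord116* small nucleolar RNAs as well as *116HG*, so loss of the one cannot be told apart from loss of the other here. Chromatin isolation by RNA purification (ChIRP) was performed on adult brain, 1 hemisphere per library, and pulls DNA out of fixed chromatin with oligos complementary to an RNA. The 5 peak lists come from WT brain with *116HG* oligos (replicates 1 and 2), WT brain with non-specific control (NSC) oligos, *Snord116del* brain with *116HG* oligos and *Snord116del* brain with NSC oligos. The RNA-seq table holds 1 FPKM per group and none per mouse, and each control list is 1 library, so the spread between animals is unknown and no difference between groups was tested here.

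Splicing regulators of these families bind short motifs in introns and exons of pre-mRNA and, depending on the side of the exon, raise or lower its inclusion. Rbfox proteins bind UGCAUG, and RBFOX3 is the antigen NeuN, used to mark mature neurons. Nova proteins bind clusters of YCAY and act on transcripts of synaptic proteins, Ptbp proteins bind pyrimidine-rich tracts and mostly repress exons, and Mbnl proteins bind YGCY and drive the change from fetal to adult exons. PTBP1 is known for keeping neuronal exons out in progenitors and non-neuronal cells, and PTBP2 (nPTB) takes its place in developing neurons.

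Every one of the 9 genes carried *116HG* peaks in the longer of the WT lists. Of the 78033 peaks of WT *116HG* replicate 1, 152 lay within these genes or 2 kb of them, 0.195% of the list (95% exact interval 0.165 to 0.228%, which covers counting error only). A peak in that list was common among genes at large, since 93.6% of the tested genes that have an annotation had at least 1. In WT *116HG* replicate 2, a list of 11145 peaks, 7 lay at these genes (0.0628%, 0.0253 to 0.129%), and they touched 5 of them, *Rbfox1*, *Rbfox2*, *Nova1*, *Mbnl1* and *Mbnl2*. The background was 17.4% of all annotated tested genes for replicate 2, and 48.1% of those of at least 100 kb. The 5 genes with a replicate 2 peak are among the 6 of the 9 that are at least 100 kb long, the other being *Rbfox3*.

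The control lists held few peaks at these genes, but they are also short, with 1280 to 3648 peaks in all. WT NSC had 1 peak of 3648 at these genes (0.0274%, 0.000694 to 0.153%), in *Mbnl1*, and 2.51% of annotated tested genes had a peak in it. *Snord116del* NSC had 1 of 3418 (0.0293%, 0.000741 to 0.163%), in *Ptbp1*, where the background was 10.6% of genes. Both NSC intervals contain the WT *116HG* replicate 2 share of 0.0628%, so these counts do not separate the NSC lists from replicate 2. The intervals of both NSC lists and of replicate 2 lie below that of replicate 1 (0.165 to 0.228%). The WT *116HG* replicates thus differed in share from each other. The intervals cover counting error only and take peaks as independent, so this is no test of a difference. The *Snord116del* *116HG* list had 0 of 1280, which allows a share of up to 0.234% and so does not separate it from replicate 1, and 2.88% of genes had a peak in it.

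*Rbfox1*, the longest of the genes at chr16:6809315-7412572 (mm9, plus strand), had 43 replicate 1 peaks, more than 99.4% of tested genes. *Rbfox3* at chr11:118351074-118772911 (minus) had 21 and *Rbfox2* at chr15:76909420-77137483 (minus) had 19. *Mbnl1* at chr3:60277032-60433670 (plus) and *Mbnl2* at chr14:120674891-120830919 (plus) had 16 each. *Nova2* at chr7:19510698-19551031 (plus) had 11, *Nova1* at chr12:47795504-47919762 (minus) had 9, *Ptbp2* at chr3:119421660-119486306 (minus) had 9 and *Ptbp1* at chr10:79317172-79327516 (plus) had 8.

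The order of the counts was close to that of gene length. Per 100 kb the count was lowest for *Rbfox3*, at 4.93, and highest for *Ptbp1*, at 55.8, the shortest of the genes, with *Nova2* next at 24.8 and *Ptbp2* at 13.1. Over annotated tested genes the median was 14.9 peaks per 100 kb, and 7 of the 9 genes lay below it. These genes are long, with a median of 156 kb against 23.2 kb. Per kb of exon, with all peaks counted, the order turned. The median of the 9 genes was 2.68 against 1.31 over annotated tested genes, and only *Nova1* (1.29) and *Nova2* (1.22) lay below the latter.

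**Figure D1:**
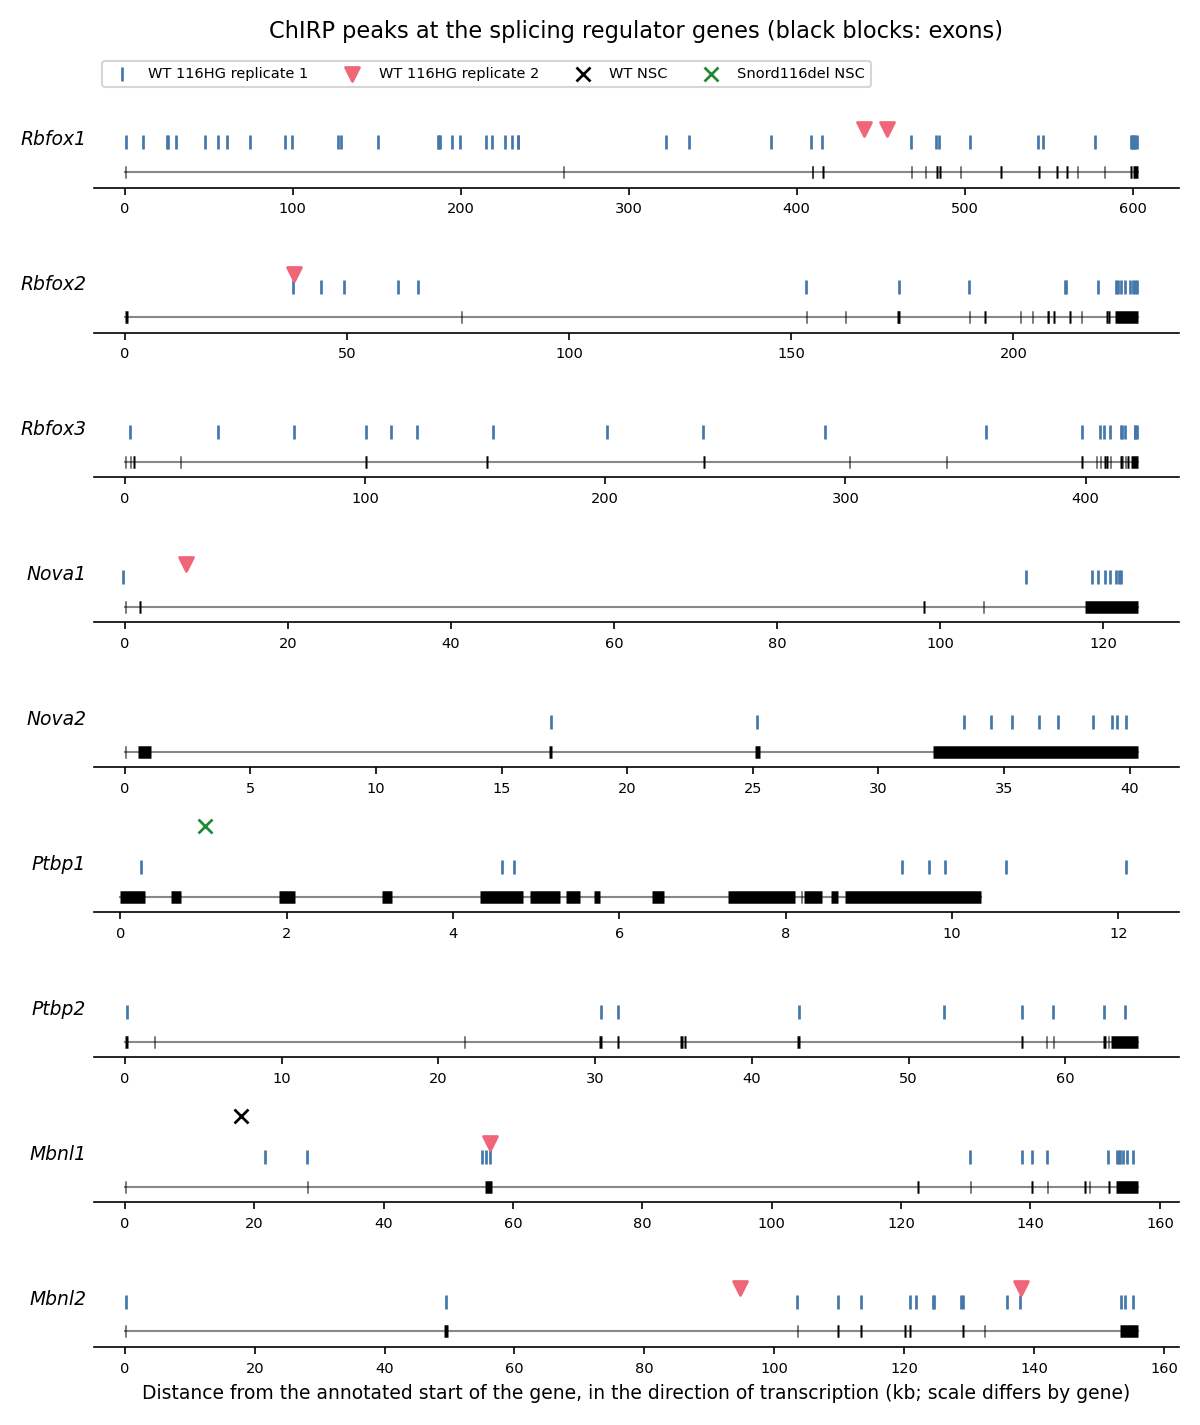
Positions of ChIRP peaks along each gene. The horizontal axis is the distance in kb from the annotated start in the direction of transcription, on a separate scale for each gene, black blocks are exons of any transcript, blue ticks are the 152 WT *116HG* replicate 1 peaks, red triangles the 7 replicate 2 peaks, and crosses the 2 control peaks. *Rbfox1* shows peaks through its introns, while those of *Nova1* and *Nova2* crowd at the 3′ end.

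Placement along the gene is given for each gene by the middle base of each peak, with no test of a difference between genes. In *Rbfox1*, 33 of 43 peaks were intronic, 7 lay in coding exons and 3 in the 3′ UTR. *Nova2* had none in introns, with 9 of 11 in the 3′ UTR and 2 in coding exons, and *Nova1* had 6 of 9 in the 3′ UTR. *Ptbp2* had 6 of 9 in coding exons, and *Ptbp1* had 2 there, 1 in the 5′ UTR, 3 in the 3′ UTR and 2 downstream. *Mbnl1* had 4 in coding exons, 3 in the 5′ UTR, 6 in the 3′ UTR and 3 in introns, and *Mbnl2* had 5, 2, 3 and 6 in that order. *Rbfox2* had 8 in the 3′ UTR and 8 in introns, and *Rbfox3* had 7 in coding exons and 8 in introns.

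Over the 9 genes, 89 of the 152 peaks had their middle in an exon (58.6%, 50.3 to 66.5%), of which 42 were in a 3′ UTR (27.6%), 36 in coding sequence (23.7%) and 11 in a 5′ UTR (7.24%). Introns held 60 (39.5%) and the flanks 3. Across tested genes the share in exons was 77.7%. That lies above the interval for these genes, but the interval takes peaks as independent, while they cluster in 9 genes. It is therefore no test of a difference. The exon share varied by gene, from 10 of 43 peaks in *Rbfox1* to 11 of 11 in *Nova2*. *Rbfox1* alone supplied 33 of the 60 intronic peaks. Of the 116 exons of these genes, 52 held a peak, from 8 of 10 in *Mbnl2* and 7 of 11 in *Mbnl1* to 1 of 5 in *Nova1*.

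**Figure D2:**
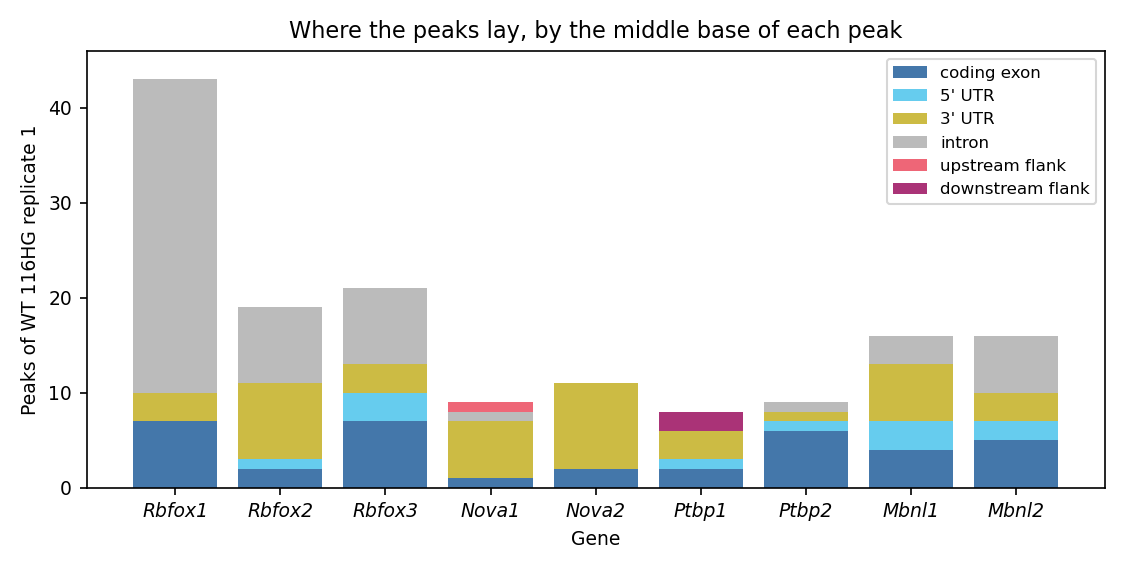
Number of WT *116HG* replicate 1 peaks in each gene (bars, from 0), split by the annotated feature that holds the middle base of the peak. The grey intron part is 33 of 43 peaks in *Rbfox1* and is absent in *Nova2* and *Ptbp1*.

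The 36 coding-exon peaks, chosen by their middle base, were compared with the exon that held it. Of these, 20 contained the whole exon, 32 covered more than 50% of it, and the median number of peak bases outside the exon was 17.5, with a median exon of 154 bases and a median peak of 158 bases. The fold over input of replicate 1 peaks, the authors' own value, ran from 28.9 to 237 in *Rbfox1* (median 51.3), 27.1 to 349 in *Rbfox2* (median 71.8) and 30.8 to 298 in *Rbfox3* (median 70.3). In *Mbnl2* it ran from 30.1 to 183 (median 82.1) and in *Nova1* from 23.3 to 113 (median 41.0). The median over the 152 peaks was 51.5 against 55.3 for the whole list, so the middle peak at these genes was no higher than that of the list. The highest were at the 3′ ends, in the 3′ UTR of *Rbfox2* (chr15:76909423-76909879, 349-fold) and of *Rbfox3* (chr11:118351067-118352053, 298-fold), and *Rbfox3* had a coding-exon peak of the same fold at chr11:118374461-118374728.

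As examples of peaks in coding sequence, which were chosen for lying there, the one of highest fold is given for each Rbfox gene among peaks of up to 300 bases that touch no UTR, as read from the mm9 reference on the gene's strand. Capitals mark coding bases and lower case the flanking intron. The *Rbfox1* peak (61.6-fold) has 128 coding bases of 131, the *Rbfox2* peak (111-fold) contains a whole exon of 225 bases, and the *Rbfox3* peak (103-fold) a whole exon of 61 bases.
*Rbfox1* chr16:7353022-7353152 (plus): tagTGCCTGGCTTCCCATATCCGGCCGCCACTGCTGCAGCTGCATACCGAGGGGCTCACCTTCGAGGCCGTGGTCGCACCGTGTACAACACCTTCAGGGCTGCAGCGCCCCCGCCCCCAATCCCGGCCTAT
*Rbfox2* chr15:76963134-76963382 (minus): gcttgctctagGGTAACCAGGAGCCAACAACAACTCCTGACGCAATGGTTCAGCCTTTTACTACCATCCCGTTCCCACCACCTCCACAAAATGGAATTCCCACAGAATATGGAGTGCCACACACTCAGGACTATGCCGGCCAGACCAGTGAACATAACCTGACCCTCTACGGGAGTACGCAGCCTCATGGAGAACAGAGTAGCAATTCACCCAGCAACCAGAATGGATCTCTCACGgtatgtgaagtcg
*Rbfox3* chr11:118362860-118362954 (minus): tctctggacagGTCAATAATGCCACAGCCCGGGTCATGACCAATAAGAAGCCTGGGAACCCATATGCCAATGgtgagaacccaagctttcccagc
In *Rbfox2* and *Rbfox3* the intron bases on both sides of the exon number 24 and 34 in all.

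Replication between the WT libraries was sparse. By the counts in the paper, fewer reads and a far smaller share of reads aligned for replicate 2 than for replicate 1. The part of this in the replication was not tested. A replicate 1 peak counted as replicated when a replicate 2 peak lay at most 10 kb away, the rule of the study. By that rule 4 of the 9 genes had a replicated peak, *Rbfox2* (2 peaks), *Nova1* (1), *Mbnl1* (3) and *Mbnl2* (5), against 17.9% of annotated tested genes and 31.5% of those of at least 100 kb. Replicated peaks were 11 of 152 at these genes (7.24%, 3.67 to 12.6%) and 10.4% of the whole list. Without replicate 1 only 5 of the genes had any WT *116HG* peak.

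Direct overlap of the replicates was found at 3 places. In *Rbfox2* the replicate 2 peak chr15:77099450-77099514 overlapped an intronic replicate 1 peak of 41.0-fold. *Mbnl1* had an overlap in its 5′ UTR, of a replicate 2 peak at chr3:60333438-60333516 with a replicate 1 peak of 61.6-fold. The remaining overlap was in an intron of *Mbnl2*, with a replicate 1 peak of 39.6-fold. The other pairs within 10 kb were 7431 bases apart in *Nova1* and 8710 bases apart in *Mbnl2*, and the 2 replicate 2 peaks of *Rbfox1* lay 13672 and 24448 bases from the nearest replicate 1 peak.

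The *Rbfox2* overlap is shown as a place outside UTRs where peaks of both replicates met, and the replicated peak just before *Nova1* as the one peak of the 152 upstream of a gene. In the first sequence capitals mark bases shared by the peaks of both replicates.
*Rbfox2* intron, replicate 1 peak, chr15:77099487-77099638 (minus): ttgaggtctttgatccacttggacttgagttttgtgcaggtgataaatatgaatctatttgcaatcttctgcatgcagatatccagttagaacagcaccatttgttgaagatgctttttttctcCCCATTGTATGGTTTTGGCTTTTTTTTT
The *Rbfox2* overlap is 28 bases at one edge of the peak. The next sequence is the part of the replicated *Nova1* upstream peak nearest the gene, with capitals on its 18 CG dinucleotides and a longest run of 19 A.
*Nova1* upstream, replicate 1 peak, chr12:47919767-47920066 (minus): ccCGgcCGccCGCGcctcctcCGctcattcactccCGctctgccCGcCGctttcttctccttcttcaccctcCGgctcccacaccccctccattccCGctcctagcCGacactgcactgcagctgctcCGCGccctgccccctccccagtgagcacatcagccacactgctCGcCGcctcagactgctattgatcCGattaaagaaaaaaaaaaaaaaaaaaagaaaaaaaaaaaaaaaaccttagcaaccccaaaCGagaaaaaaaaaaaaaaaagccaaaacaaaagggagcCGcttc

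Several of these positions repeat elsewhere in the genome. The middle 32 bases of the replicate 2 peak occurred 637 times in the mm9 reference for *Nova1*, 33 times for *Rbfox2*, 9 times for *Mbnl1* and 4 times for each of the 2 *Mbnl2* peaks, while those of the replicate 1 peaks in the *Rbfox2* and *Mbnl1* overlaps occurred once. Only exact matches of these 32 bases were counted, and near copies were not searched, so a single match does not show that a peak is unique. The replicate 1 peak in the *Mbnl2* overlap had a middle that occurred 4 times, and that of the other replicated *Rbfox2* peak, chr15:77093180-77093248, occurred 443 times. The replicate 2 peak of the *Mbnl2* overlap was 100% C or A on the strand of the gene. The *Mbnl1* peak of WT NSC, a control peak of 25.4-fold in an intron, had a middle that occurred 1679 times, and is shown for comparison.
*Mbnl1* intron, WT NSC peak, chr3:60294956-60295104 (plus): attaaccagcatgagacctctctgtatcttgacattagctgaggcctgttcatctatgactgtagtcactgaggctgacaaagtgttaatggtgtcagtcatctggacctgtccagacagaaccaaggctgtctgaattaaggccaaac
How the aligner placed reads with several matches is not given in the sources used here, and its part in these peaks was not tested.

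The letters TGCATG, the DNA form of the Rbfox motif, were searched on both strands in 151 bases centred on each peak. They were found in 20 of the 152 peaks at these genes (13.2%, 8.23 to 19.6%), beside 7.22% of all replicate 1 peaks and 4.99% of replicate 2 peaks. The control lists held it in 7.19% (WT NSC), 2.83% (*Snord116del* NSC) and 1.65% (*Snord116del* *116HG*) of peaks. *Rbfox1* held 9 of the 20, *Mbnl2* 4, *Mbnl1* 3, *Rbfox3* 2, and *Rbfox2* and *Nova1* 1 each, that of *Rbfox2* being the intronic peak shown above. CTCTCT, a pyrimidine-rich stretch of the kind Ptbp proteins bind, was found in 28 of 152 (18.4%, 12.6 to 25.5%) beside 12.9% of all replicate 1 peaks. These intervals also take peaks as independent, while the peaks cluster in a few genes, so they are no test of a difference from the whole list. A match in DNA under a peak is a description of its letters only.

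Some peaks could belong to a neighbour. All 3 peaks in the *Ptbp1* 3′ UTR and both downstream of it lie also within *BC005764*, a gene on the opposite strand, and 4 of the *Nova2* 3′ UTR peaks lie within the antisense gene *Gm17370*. Some intronic peaks of *Rbfox2*, the 5′ UTR peak of *Ptbp1* and the 154-fold coding-exon peak of *Mbnl2* also lie within other genes on the opposite strand. Whether FPKM was counted by strand is not given in the sources used here. Where they overlap, it is therefore unknown whether reads of these genes were told apart from those of the antisense genes.

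Transcript levels came next. *Ipw*, a long non-coding RNA of the same imprinted locus, was read as a check of the labels, and *116HG* itself was not analysed here. *Ipw* had 21.6 FPKM in WT Zt +6, 3.40 in *Snord116del* Zt +6, 3.17 in WT Zt +16 and 1.82 in *Snord116del* Zt +16. It was lower in *Snord116del* at each time. The FPKM summed over all genes were 159300, 160199, 216422 and 342188 in the same order of groups, and the median over the tested genes was 3.17, 5.63, 2.90 and 4.00. In RNA from tissue, fewer cells of a type and less RNA per cell cannot be told apart. Because the groups differ in total or median, changes of the 9 genes are given beside those of all tested genes. They are also given with the groups scaled to the same median of tested genes. At Zt +6 the totals of the genotypes were close while the medians were not, so no single factor makes both equal.

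*Rbfox3* had the highest level of the 9 genes in every group, at 32.8 FPKM in WT Zt +6, 52.6 in *Snord116del* Zt +6, 37.8 in WT Zt +16 and 44.7 in *Snord116del* Zt +16. *Rbfox1*, expressed in neurons, heart and muscle, had 14.4, 34.3, 13.5 and 21.3 FPKM in that order. *Rbfox2*, the most broadly expressed of the family, had 8.42, 18.1, 11.2 and 12.8 FPKM. Thus *Rbfox1* and *Rbfox2* stood below *Rbfox3* in all 4 groups, and the *Snord116del* Zt +6 group was the highest for each of the 3 genes.

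*Nova1* was the lowest of the 9 genes in every group, with 1.12, 3.92, 1.00 and 1.45 FPKM in WT Zt +6, *Snord116del* Zt +6, WT Zt +16 and *Snord116del* Zt +16. *Nova2*, the Nova gene prominent in cortex, had 3.62, 10.5, 1.87 and 2.45 FPKM. *Nova2* was above *Nova1* throughout, and *Snord116del* Zt +6 was the highest group for each.

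*Ptbp1* had 2.79, 6.73, 1.74 and 2.49 FPKM in the same order, and *Ptbp2* had 7.68, 19.5, 7.16 and 11.1 FPKM. The neuronal paralogue was the higher one in each group. *Mbnl1* had 2.69, 12.4, 1.36 and 2.14 FPKM, and *Mbnl2*, the main Mbnl gene of adult brain, had 10.5, 38.8, 9.07 and 14.4 FPKM. *Mbnl2* came after *Rbfox3* and *Rbfox1* in WT Zt +6 and after *Rbfox3* alone in *Snord116del* Zt +6, where it passed *Rbfox1*. Neighbours in these orders cannot be said to differ, since no spread between mice is known.

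**Figure D3:**
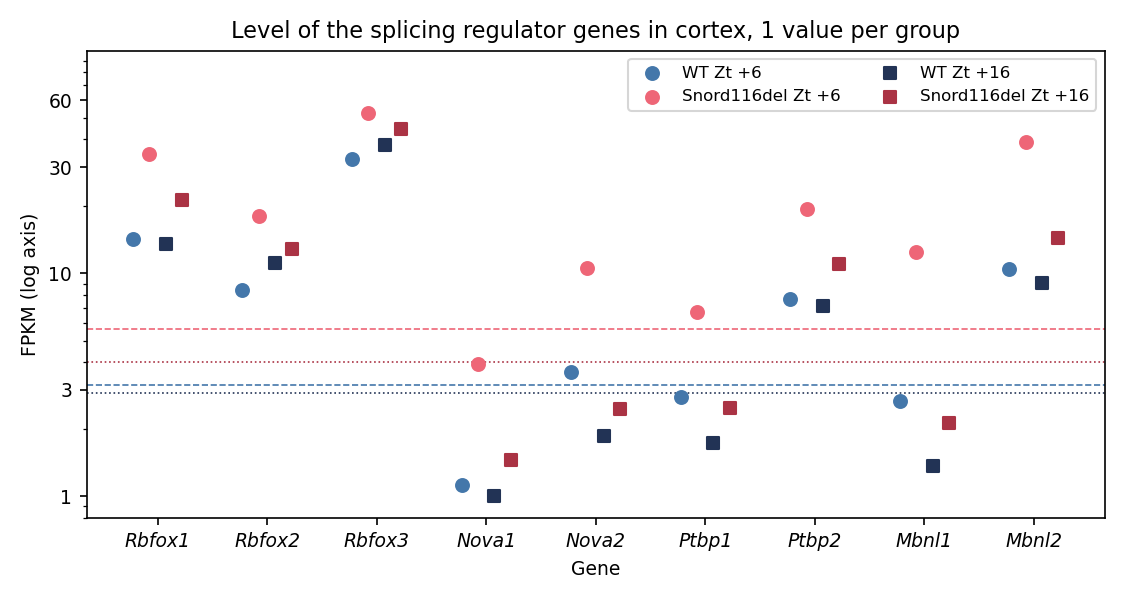
FPKM (log axis) of each gene in the 4 groups, 1 value per group. Dashed and dotted lines in the colours of the groups are the medians over the tested genes (3.17, 5.63, 2.90 and 4.00 FPKM); *Snord116del* Zt +6 is the highest point for every gene, and *Rbfox3* is the highest gene in each group.

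In *Snord116del* against WT at Zt +6, all 9 genes were higher by at least 1.5-fold in FPKM + 1, the fold rule used here in place of a test. By that rule 49.3% of the tested genes were higher and 7.62% lower, with a median log2 change of 0.57 over all of them, so a higher value was the common state of a gene in this comparison. The median log2 change of the 9 genes was 1.21. *Mbnl1* stood highest, 1.87 on the log2 scale of FPKM + 1 and 4.63 times as an FPKM ratio, at percentile 98.9 of the tested genes, followed by *Mbnl2* at 1.80 (3.71 times, percentile 98.4). *Nova2* had 1.32, *Ptbp2* 1.24, *Nova1* 1.21, *Rbfox1* 1.20, *Ptbp1* 1.03 and *Rbfox2* 1.02. *Rbfox3* had 0.66 (1.60 times), near the middle of all genes at percentile 55.2.

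With the groups scaled to the same median of tested genes, the log2 changes were 1.15 for *Mbnl1*, 1.00 for *Mbnl2*, 0.63 for *Nova1* and 0.60 for *Nova2*, the 4 that still passed the fold rule, which 14.8% of the tested genes then passed upwards and 24.2% downwards. *Rbfox1* had 0.40, *Rbfox2* 0.25, *Ptbp1* 0.35 and *Ptbp2* 0.47 on that scale, and *Rbfox3* turned to -0.15. With quantile normalization 8 genes were higher, all but *Ptbp1* at 0.39, where 22.2% of tested genes were. These genes have long transcripts, with a median of 4552 bases against 3081 over the tested genes. After the running median over genes of like transcript length was subtracted, *Mbnl2* (0.93) and *Mbnl1* (0.83) passed the fold rule, as did 12.6% of genes upwards, and *Rbfox2* turned to -0.13. With the groups scaled to the same total, all 9 genes stayed past the fold rule, with log2 changes from 0.66 to 1.93. The median of all tested genes was then 0.595. The 2 Mbnl genes were thus the ones past 1.5-fold under each of these scalings, and the count for the other genes depended on the scaling.

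At Zt +16 the deposited FPKM of *Snord116del* exceeded WT for all 9 genes, by less than at Zt +6, but the signs depended on the scale of the groups. At the same total only *Mbnl2* lay above 0 (range -0.41 to 0.0031), and with the same median or quantile normalization 6 of the 9 did. As deposited, the genes past 1.5-fold were *Rbfox1* (13.5 against 21.3 FPKM, log2 change 0.62) and *Mbnl2* (9.07 against 14.4 FPKM, 0.61), where 19.0% of tested genes were higher and 0.204% lower. *Ptbp2* had 0.56, *Mbnl1* 0.41, *Ptbp1* 0.35, *Nova1* 0.29, *Nova2* 0.27, *Rbfox3* 0.24 and *Rbfox2* 0.19. The median of the 9, 0.35, equalled that of all tested genes, 0.35, and 4 of the 9 lay above it. None of the 9 passed the rule with the groups scaled to the same median, and *Rbfox1* and *Mbnl2* then had 0.18 each.

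**Figure D4:**
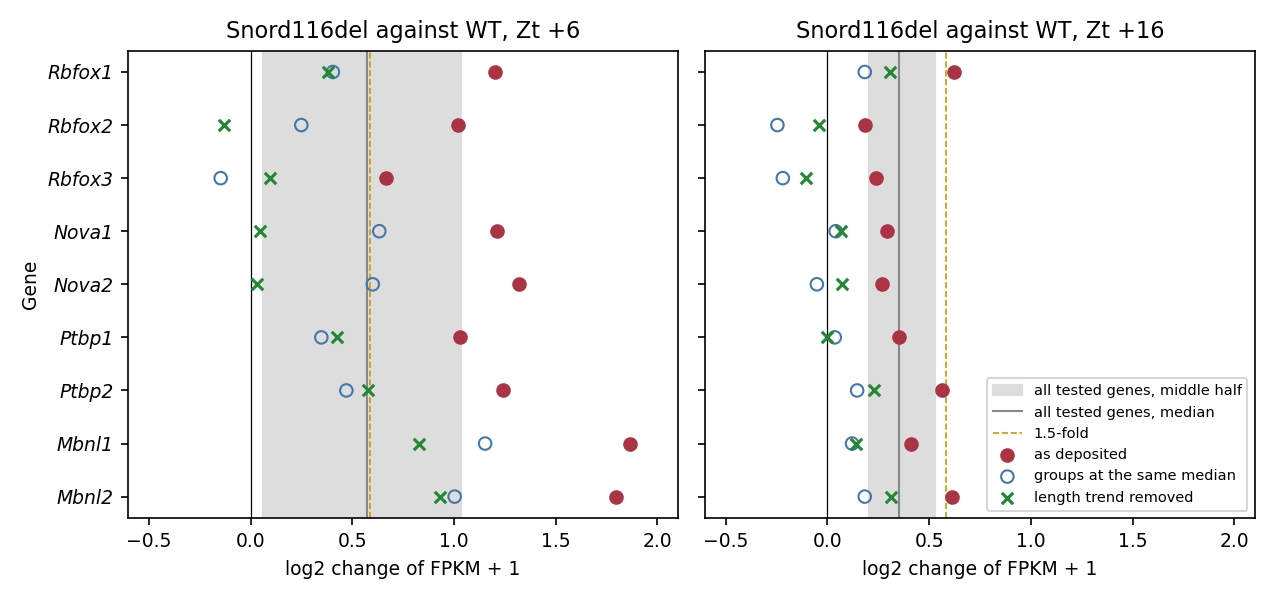
log2 change of FPKM + 1, *Snord116del* against WT, at Zt +6 (left) and Zt +16 (right). Filled points are the deposited values, open circles those after scaling the groups to the same median and crosses those after removing the trend with transcript length; the grey band holds the middle 50% of the tested genes, the grey line their median (0.57 and 0.35) and the dashed line marks 1.5-fold. *Mbnl1* and *Mbnl2* lie right of that line in all 3 forms at Zt +6.

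From Zt +6 to Zt +16 in WT, *Nova2* (3.62 to 1.87 FPKM, log2 change -0.69) and *Mbnl1* (2.69 to 1.36 FPKM, -0.64) were lower past 1.5-fold and none was higher. Over all tested genes 10.3% were lower and 5.71% higher, with a median of -0.04. *Ptbp1* had -0.47, *Mbnl2* -0.19, *Nova1* and *Ptbp2* -0.09 each and *Rbfox1* -0.08, while *Rbfox3* (0.20) and *Rbfox2* (0.37) had the opposite sign. At the same median the 9 genes ran from -0.63 to 0.49 and 4 lay above 0, and at the same total none did.

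The same step in *Snord116del* gave lower values for all 9, past 1.5-fold for 7 of them, with 39.1% of tested genes lower and 25.0% higher and a median of -0.24. *Mbnl1* had -2.10, *Nova2* -1.74, *Mbnl2* -1.37, *Ptbp1* -1.15, *Nova1* -1.0, *Ptbp2* -0.77 and *Rbfox1* -0.66. *Rbfox2* (-0.46) and *Rbfox3* (-0.23) stayed under the fold. At the same median the 9 genes ran from -1.63 to 0.25, with *Rbfox3* above 0, and without the length trend *Rbfox2* (0.81) and *Nova1* (0.28) were above 0. The *Snord116del* Zt +6 group enters both this step and the comparison of genotypes at Zt +6, so the values of each are not separate evidence.

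Ratios of genes within a family do not depend on a single scale factor of a group. A shift that varies with transcript length does not cancel in them. The transcripts of *Rbfox1*, *Rbfox2* and *Rbfox3* were 4137, 7031 and 3150 bases long. Without the length trend, their log2 changes in *Snord116del* against WT at Zt +6 were 0.38, -0.13 and 0.095. At Zt +16 they were 0.31, -0.043 and -0.10. The denominators *Nova1* and *Mbnl1* were low in WT Zt +16, at 1.00 and 1.36 FPKM. *Mbnl2* over *Mbnl1* was 3.89 in WT Zt +6, 3.12 in *Snord116del* Zt +6, 6.65 in WT Zt +16 and 6.71 in *Snord116del* Zt +16, so the genotypes lay close at each time and the times apart. *Ptbp2* over *Ptbp1* followed that order with 2.75, 2.90, 4.12 and 4.45. *Nova2* over *Nova1* was 3.22, 2.69, 1.87 and 1.69, lower at Zt +16. *Rbfox1* over *Rbfox3* was higher in *Snord116del* at each time, with 0.652 against 0.437 at Zt +6 and 0.477 against 0.357 at Zt +16. *Rbfox2* over *Rbfox3* was higher in *Snord116del* at Zt +6, with 0.344 against 0.257. At Zt +16 it was 0.287 against 0.295. As a share of the family's FPKM, *Rbfox3* made up 59.0%, 50.1%, 60.5% and 56.7%, and *Mbnl2* 79.6%, 75.7%, 86.9% and 87.0%.

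**Figure D5:**
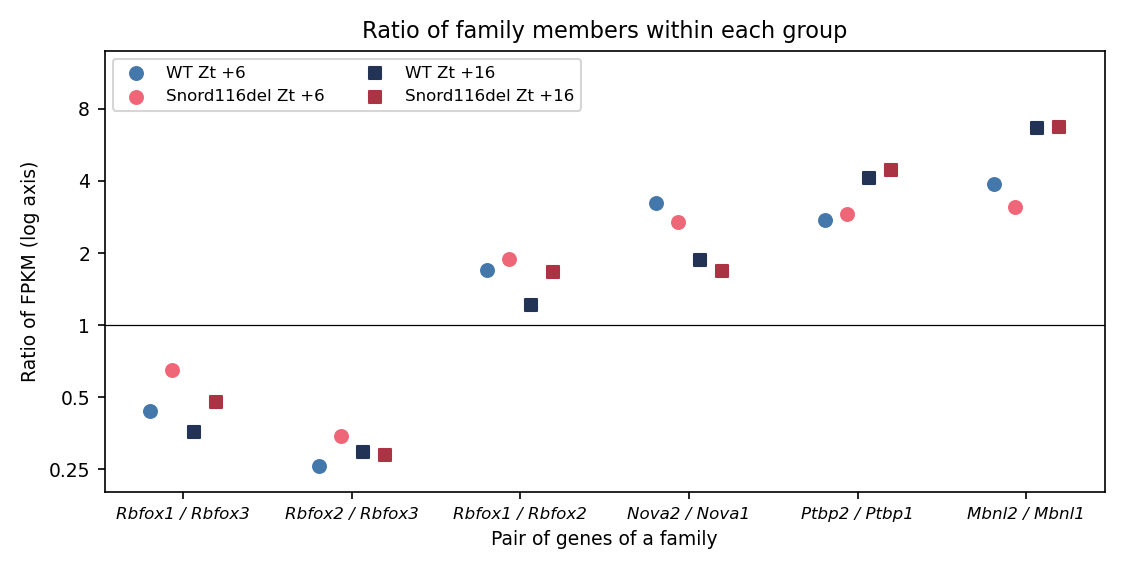
Ratio of the FPKM of 2 genes of a family within each of the 4 groups (log axis, 1 value per group, the line at 1 marks equal levels). The *Ptbp2* / *Ptbp1* and *Mbnl2* / *Mbnl1* ratios are higher at Zt +16 in both genotypes and the *Nova2* / *Nova1* ratio lower.

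Likeness of pattern was measured as the root mean square difference of log2(FPKM + 1), centred for each gene, over the 4 groups. *Rbfox1* and *Ptbp2* were the closest pair of the 9 (0.038), and *Rbfox2* was nearest to *Rbfox3* (0.13) and *Nova2* to *Mbnl1* (0.21). The tested genes nearest to the median profile of the 9 were *Crbn* (0.017), *Cacna1i* (0.017) and *Epb4.1l1* (0.019). *Crbn*, a substrate receptor of a ubiquitin ligase, had 3.24, 8.75, 2.86 and 4.06 FPKM. With 4 points many genes have a like pattern, and 5 tested genes were closer to *Rbfox1* than *Ptbp2* was, 235 closer to *Rbfox2* than *Rbfox3* was and 1551 closer to *Nova2* than *Mbnl1* was.

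Other splicing regulators of brain were read in the same way. Of 22 in a list of Celf, Elavl, Khdrbs, Srrm, Musashi, quaking and TIA genes, 19 were tested and 13 were higher past 1.5-fold at Zt +6 in *Snord116del*, 5 were not past it, and the median log2 change was 1.13, beside 49.3% of all tested genes higher and their median of 0.57. With the groups scaled to the same median, 7 were higher and 2 lower past the fold, with a list median of 0.45, where 14.8% of tested genes were higher and 24.2% lower. *Qk*, which acts on exons and mRNA of myelin genes, had the largest difference, from 16.4 to 81.3 FPKM (2.24), followed by *Elavl4*, a neuronal Hu protein gene, from 4.38 to 19.5 FPKM (1.93). *Celf2* was listed at 0 in *Snord116del* Zt +6, with 9.65, 7.05 and 10.3 FPKM in the other groups, and counted as the 1 lower gene. *Celf1* (0.46), *Celf3* (0.04), *Celf5* (0.56), *Celf6* (0.38) and *Khdrbs3* (0.31) were not past the fold. At Zt +16 only *Celf4* of the list passed (0.63), with a list median of 0.37. Over all tested genes 19.0% were higher at that time, with a median of 0.35. *Mbnl3*, the other Mbnl gene, had at most 0.0355 FPKM in a group and was not tested, nor were *Ptbp3* and *Khdrbs2*. From Zt +6 to Zt +16 in WT, *Celf4* (-1.07), *Elavl3* (-1.01), *Qk* (-0.71), *Msi2* (-0.69) and *Elavl4* (-0.61) were lower past 1.5-fold. In *Snord116del* 12 were lower, 6 were not past the fold and *Celf2*, listed at 0 at Zt +6, counted as higher. Over all tested genes 10.3% were lower and 5.71% higher with time in WT. In *Snord116del* 39.1% were lower and 25.0% higher.

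Among proteins that work with these regulators, 6 of 8 tested genes were higher at Zt +6, led by the RNA helicase gene *Ddx5* (25.0 to 93.5 FPKM, 1.86) and *Matr3* (1.62), and none at Zt +16. For these and the lists that follow, the background at Zt +6 is again 49.3% of tested genes higher and 7.62% lower. At Zt +16 it is 19.0% higher and 0.204% lower. *Ilf2* (0.11) was among those not past the fold. Genes known for exons under the control of each family were read at the level of the whole gene, since FPKM per gene does not show exon inclusion. For Rbfox, 4 of 5 were higher at Zt +6, among them *Cacna1c* (1.36), *Fn1* (1.21) and *Ewsr1* (0.64), with the synaptic gene *Snap25* at 0.29, and 0 at Zt +16. For Nova, 4 of 5 were higher at Zt +6, among them *Kcnj6* (1.86), *Gphn* (3.11 to 9.84 FPKM) and *Dab1* (1.19), with *Glra2* at 0.36, and 1 at Zt +16. For Mbnl, 5 of 7 were higher at Zt +6, namely the potassium channel gene *Kcnma1* (1.92), *Tanc2* (1.58), *Camk2d* (4.37 to 14.2 FPKM), *Insr* (0.90) and *Mapt* (0.66), with *Ndrg4* at 0.22 and *Add1* at 0.19, and at Zt +16 *Ndrg4* (0.59). The Ptbp genes were mixed, with *Shtn1* (1.18), *Gabbr1* (0.95) and *Dlg4* (0.90) higher, *Src* (0.57) and *Tpm1* (0.14) not past the fold and the pyruvate kinase gene *Pkm* lower at Zt +6 (304 to 169 FPKM, -0.85), while *Src* (0.82) and *Pkm* (0.73) were higher at Zt +16. With the groups scaled to the same median, the median log2 change at Zt +6 was 0.046 for the partners, 0.52 for the Rbfox list, 0.69 for Nova, -0.057 for Ptbp and 0.39 for Mbnl.

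Markers of the cell types of cortex were read as sums of FPKM. At Zt +6 the sum in *Snord116del* against WT was 372 against 170 for neurons (3 of 5 markers higher), 98.5 against 33.3 for astrocytes (5 of 5), 656 against 400 for oligodendrocytes (3 of 5), 52.2 against 26.3 for microglia (4 of 5) and 14.4 against 4.35 for endothelium (4 of 4 tested), where 49.3% of all tested genes were higher. With the groups scaled to the same median, the median log2 change of the markers at Zt +6 was 0.0037 for neurons, 0.43 for astrocytes, 0.24 for oligodendrocytes, -0.024 for microglia and 0.45 for endothelium. At Zt +16 the sums were 198 against 132, 19.1 against 14.8, 943 against 659, 38.2 against 23.8 and 2.52 against 2.15, with 1, 0, 2, 3 and 0 markers higher. Of all tested genes 19.0% were higher at that time. Neuronal markers were present in all groups, with *Tubb3* at 16.7, 16.8, 19.6 and 23.1 FPKM and *Syt1* at 42.8, 134, 19.4 and 28.0 FPKM. The part of these markers in the values of the 9 genes was not tested.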

How the data were processed

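RNA-seq of mouse cortex and ChIRP-seq of mouse brain were analysed from the processed files. For the cortex samples the authors aligned reads with TopHat2 2.0.5 to mm9 and deposited 1 Cuffdiff 2.0.2 FPKM value per gene and group. The deposited table also holds the authors' log2 fold change, q-value and significance call for pairs of groups, which were not used here. For ChIRP, the authors aligned reads with Bowtie2 2.0.0 to mm9 and called peaks with MACS 1.4.2 in each library against WT input, keeping those with a false discovery rate under 5% and over 20-fold enrichment. Each deposited list gives the ratio of a peak to input, except that of WT *116HG* replicate 2, which has positions only. Depth cannot be read from FPKM, and the number of peaks is given for each list. The paper lists read counts for each library. By its counts, fewer reads aligned for WT *116HG* replicate 2 than for replicate 1, and a far smaller share of its reads did.

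The design allowed for a limma fit had values per mouse been present; as each group has 1 value, a fold rule was used. It takes FPKM + 1 at least 1.5-fold apart with at least 1 FPKM in the higher group, over genes that average 1 FPKM or more, and a pseudocount of 1 understates changes of low genes. Genes and exons were taken from GENCODE vM1 on NCBIM37, the assembly of mm9, and a peak was at a gene within it or 2 kb of it. Transcript lengths were found for 97.8% of tested genes, and their trend was a running median of 501 genes. Peaks on sequences of that reference numbered 77619, 10664, 3378, 1271 and 3395 for WT *116HG* replicates 1 and 2, WT NSC, *Snord116del* *116HG* and *Snord116del* NSC, and were read for motifs. Shares have 95% exact (Clopper-Pearson) intervals, and a count of 0 allows up to 3 counts. The steps were tested on simulated data. Alternatives were other pseudocounts, filters, scalings, folds, peak thresholds, distances and merging, and each WT *116HG* replicate left out. Python 3.11.15, numpy 2.4.6, pandas 2.3.3, scipy 1.17.1 and matplotlib 3.10.9 were used.

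The 9 genes and all lists were chosen with earlier results of these data known. Of each list the genes with the largest difference in each direction are named, and those needed for a count of 5 or fewer. Cell types were read from 5 marker genes each. *Matr3*, *Elavl4*, *BC005764* and *Gm17370* were named after their values were seen. The table lists *Pkm* as *Pkm2*, *Ptbp3* as *Rod1* and *Shtn1* under an older symbol. Some listed genes and 1 peak sequence are not reported here.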

Additional observations from a re-analysis of the deposited data

Results flagged for a closer look

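On the deposited scale, *Rbfox2* and *Rbfox3* changed in opposite directions with time of day in the genotypes. From Zt +6 to Zt +16 the log2 change of *Rbfox2* was 0.37 in WT and -0.46 in *Snord116del*, and that of *Rbfox3* was 0.20 in WT and -0.23 in *Snord116del*. The difference between the genotypes was not tested, as each group has 1 value. With the groups scaled to the same median the changes were 0.49 and -0.0011 for *Rbfox2* and 0.33 and 0.25 for *Rbfox3*, so for *Rbfox3* the signs were then alike. At the same total the changes were -0.032 and -1.48 for *Rbfox2* and -0.23 and -1.30 for *Rbfox3*, alike in sign for both. With quantile normalization they were 0.29 and -0.61 for *Rbfox2* and -0.12 and -1.06 for *Rbfox3*. Without the length trend *Rbfox2* had 0.71 and 0.81, and *Rbfox3* had 0.21 and 0. The signs were thus opposite for *Rbfox2* at the same median, by 1 value close to 0, and with quantile normalization, and in none of these 4 settings for *Rbfox3*.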

How the results depend on the processing

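No paired analysis was possible because the RNA-seq table holds 1 value per group and none per mouse, and for the same reason no mouse could be left out in turn. Of the 9 genes, the number past the fold rule at Zt +6 (9) was 5 with a mean of at least 5 FPKM, where 5 genes remain in the test, 4 with groups at the same median and 2 with the length trend removed. For the other splicing regulators at Zt +6 (14) it was 9 at the same median and 6 without the length trend. At Zt +16, the number for the 9 genes (2) was 4 with a pseudocount of 0.1 FPKM, and for both the 9 genes and the other regulators (1) it was 0 at the same median, the same total, with quantile normalization, without the length trend and with a 2-fold rule. For time in WT, the 9 genes (2 lower) gave 0 with a mean of at least 5 FPKM, 4 at the same total, 0 with quantile normalization, 0 with 2-fold and 1 higher, *Rbfox2*, without the length trend. The other regulators (5) gave 10 at the same total, 3 with quantile normalization and 2 each without the length trend and with 2-fold. For time in *Snord116del*, the 9 genes (7) gave 3 with a mean of at least 5 FPKM and 4 without the length trend. Of changes past the fold rule, signs turned for *Rbfox2* at Zt +6 without the length trend (-0.13), *Rbfox3* at Zt +6 at the same median (-0.15), *Rbfox1* at Zt +16 at the same total (-0.0010) and *Nova1* with time in *Snord116del* without the length trend (0.28). Changes under the fold turned too, as given with each comparison. The 152 replicate 1 peaks were 35 in the upper quartile of fold (at least 85.4) and 100 when peaks within 1 kb were merged, and the 4 genes with a replicated peak were 1 in that quartile. The number of genes with any WT *116HG* peak ranged from 5 to 9 when either replicate was left out. The other 40 values that answer a comparison stayed within 1.5 times. The fewer genes tested explain the counts under the higher filter by construction, and for the rest the cause was not tested.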
